A study of Rattus norvegicus with 9 samples.

Results

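Galanin and 9 other genes of neuropeptide signalling were examined in prostates of 9 rats on Agilent one-colour arrays. The members were chosen by name: the peptide precursors Gal (galanin), Vip, Npy, Tac1, Calca, Penk, Nts, Grp and Adcyap1, and the galanin receptor Galr2. All 10 had a probe, among 15163 named genes on the array, and together they had 14 of 30356 probes. Gal had been selected on its difference between BPH+ghrelin and BPH in these same arrays, so that its values are given as a description without a test. The other members were put on the list for their role, with results of these arrays known.

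The animals were male Sprague Dawley rats, 6 weeks old at purchase, with 3 arrays per group. Sham rats underwent a sham operation for castration and received corn oil by injection and water by gavage. BPH rats were castrated, received 3 mg/kg dihydrotestosterone subcutaneously once daily over 4 weeks to induce benign prostatic hyperplasia, and received water by gavage. BPH+ghrelin rats were castrated, received the same dihydrotestosterone, and were given rat ghrelin by gavage at 20 nmol/kg daily during the last 2 weeks. Castration and androgen replacement were thus common to BPH and BPH+ghrelin and absent in sham, and no group received ghrelin without them. The study's sources do not give the ghrelin dose and route uniformly, nor the prostate lobe sampled. RNA came from whole tissue, where fewer cells of a type and less RNA per cell cannot be told apart.

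Neuropeptides are cut from larger precursors in the regulated secretory pathway, stored in dense core granules and released from nerves or endocrine cells to act on G protein-coupled receptors. In the prostate, autonomic nerves from the pelvic ganglia supply smooth muscle and glandular epithelium, and neuropeptide Y, vasoactive intestinal peptide, enkephalins and galanin are known as their cotransmitters, while substance P and calcitonin gene-related peptide are known from sensory fibres. Galanin acts on 3 receptors, encoded by Galr1, Galr2 and Galr3. The cell bodies of most of these nerves lie outside of the gland, so that a precursor mRNA in prostate tissue need not reflect the peptide content of its nerves.

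Several of these precursor genes are textbook targets of cyclic AMP signalling through the cyclic AMP response element (CRE), with the letters TGACGTCA. The 250 bases before the gene start were available for 9 of 10 members (RefSeq, assembly GRCr8); Penk had no entry. A CRE half-site, TGACG on either strand, was found in 6 of these 9 windows (Gal, Vip, Tac1, Calca, Nts and Grp) and in 18.2% of all 33469 promoter windows of this length. It was not found in the windows of Galr2, Npy and Adcyap1. The full CRE was found in 0 of 9, and in 1.59% of all windows. Each full CRE holds the half-site, so that both counts overlap. In Gal, the half-site began at position -63 from the start, TATAAA at -41 (12.9% of all windows hold these letters on either strand), and AGAACA, a half-site of steroid receptors, at -207 (17.5% of all windows). The windows of Gal (chr1:210084573-210084822 on the minus strand), Npy (chr4:80211861-80212110 on the plus strand) and Vip (chr1:44470230-44470479 on the plus strand) are shown 5′ to 3′, with half-sites in capitals. They were picked because Gal is the member whose signal differed most, Npy is a peptide precursor that was measured on every array but holds no half-site here, and Vip holds one but was not measured well above background on any array.
Gal: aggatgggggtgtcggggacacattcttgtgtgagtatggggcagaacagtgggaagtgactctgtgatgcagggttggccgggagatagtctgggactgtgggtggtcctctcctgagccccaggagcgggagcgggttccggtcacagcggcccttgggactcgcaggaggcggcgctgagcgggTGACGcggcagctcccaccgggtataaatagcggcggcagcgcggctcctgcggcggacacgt
Npy: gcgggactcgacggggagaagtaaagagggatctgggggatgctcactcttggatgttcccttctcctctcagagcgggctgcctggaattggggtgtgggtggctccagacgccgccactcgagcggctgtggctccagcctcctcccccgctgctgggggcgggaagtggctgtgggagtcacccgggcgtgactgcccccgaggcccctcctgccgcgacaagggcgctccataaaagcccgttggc
Vip: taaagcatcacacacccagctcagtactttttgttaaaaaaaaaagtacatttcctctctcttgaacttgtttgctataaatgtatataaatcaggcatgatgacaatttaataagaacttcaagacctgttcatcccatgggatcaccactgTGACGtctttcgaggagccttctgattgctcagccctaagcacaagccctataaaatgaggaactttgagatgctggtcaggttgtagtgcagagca
These matches are descriptions of letters, and binding at them was not measured.

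Values are log2 of the scanner's background-subtracted signal after quantile normalization over the 9 arrays, in which 1 unit is a 2-fold difference. The scanner software marks each spot as well above background or not. This mark was set for 61.4% of all probes on sham replicate 2 and for 69.5% to 75.05% on each of the other 8 arrays. By this mark, Gal, Galr2, Npy and Penk were measured on 9 of 9 arrays. Tac1 was measured on some arrays of each group by at least 1 of its probes. Calca was measured by 1 of its 2 probes on 1 array. Vip, Nts, Grp and Adcyap1 were not well above background on any of the 9 arrays. Testing a gene required this mark on 3 or more of the 6 arrays in a comparison, which 4 members met in BPH+ghrelin against BPH, 5 in BPH against sham and 4 in BPH+ghrelin against sham.

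Gal was the member with the highest signal range. It has a probe printed on 10 spots of each array and a second probe on 1 spot. On the 10-spot probe, the sham arrays had log2 signals of 6.64, 6.38 and 6.48, the BPH arrays of 5.92, 7.80 and 8.80, and the BPH+ghrelin arrays of 10.50, 10.84 and 11.21. All BPH+ghrelin arrays were above every array of both other groups, while the BPH arrays were spread around the sham arrays, with BPH replicate 1 below all of them and the other 2 above. The group means were 6.50 ± 0.14 in sham, 7.51 ± 1.46 in BPH and 10.85 ± 0.36 in BPH+ghrelin (SD, n = 3).

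BPH+ghrelin was thus 3.34 above BPH on the log2 scale, which is 10.2-fold, and 4.35 above sham, which is 20.5-fold. BPH was 1.01 above sham (2.01-fold), and these groups overlapped. In the order of the levels, sham and BPH are the neighbours that did not separate. The SD of the BPH group was larger than the difference between both group means.

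The second Gal probe gave lower signals with the same pattern. Its values were 5.55, 5.02 and 5.31 in sham, 4.92, 7.09 and 8.09 in BPH, and 9.64, 9.99 and 10.42 in BPH+ghrelin. The differences by this probe were 3.31 between BPH+ghrelin and BPH, 1.41 between BPH and sham, and 4.72 between BPH+ghrelin and sham. Over the 9 arrays, Pearson's r between both probes was 0.997, as a description. The 10 spots of the first probe differed on 1 array by an SD of 0.037 to 0.124 log2 units.

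**Figure D1:**
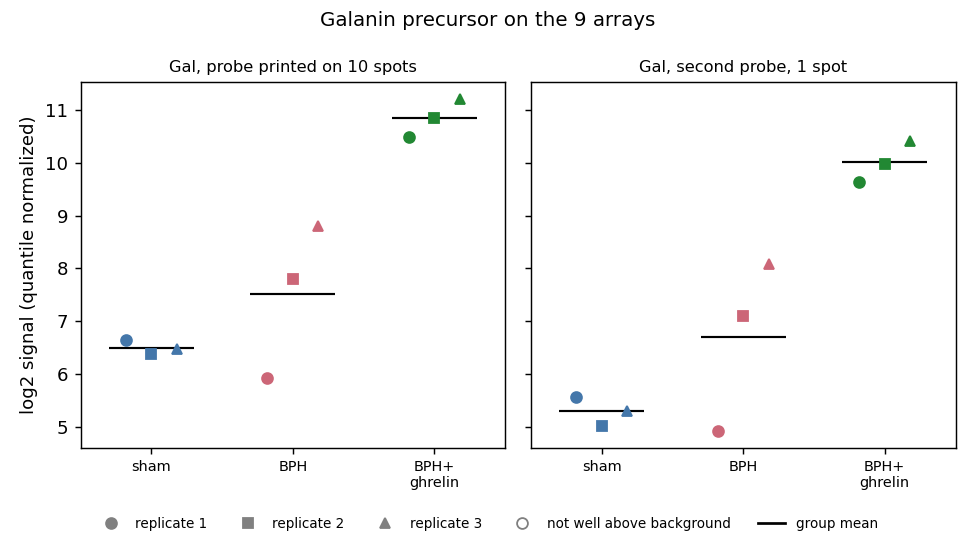
Log2 signal of Gal (quantile normalized) on each of the 9 arrays, by group, for the probe on 10 spots (left) and the second probe (right). Points are arrays, with a marker for each replicate, and lines are group means. All points are filled, since both probes were well above background on 9 of 9 arrays, and the BPH+ghrelin arrays (10.50 to 11.21 on the left) lie above all others.

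Slides held groups unequally. The 3 BPH arrays shared slide 1 with BPH+ghrelin replicate 1, slide 2 held BPH+ghrelin replicates 2 and 3 together with 2 sham arrays (replicates 1 and 2), and slide 3 held sham replicate 3. Within slide 1, Gal was 2.99 higher in 1 BPH+ghrelin array than in the mean of 3 BPH arrays. Within slide 2, it was 4.52 higher in 2 BPH+ghrelin arrays than in 2 sham arrays. Both differences had the direction and about the size of those over all arrays. No slide held both BPH and sham, so that no difference within a slide can be given for this comparison. With slide as a block, where both groups are compared through the BPH+ghrelin arrays of slides 1 and 2, Gal was 1.53 higher in BPH than in sham.

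The BPH arrays also lay far apart for other members. In Gal, Npy, Penk and Galr2, BPH replicate 1 had the lowest and BPH replicate 3 the highest signal of the group. This is not particular to these genes. Of 22569 probes, BPH replicate 2 lay between the other 2 BPH arrays at 70.5%, with BPH replicate 1 lowest at 34.8% and highest at 35.7%. Without BPH replicate 1, the difference of Gal between BPH and sham was 1.80 in place of 1.01, and without BPH replicate 3 it was 0.36.

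Penk, the precursor of the enkephalins, which act on delta and mu opioid receptors, was measured on all arrays. Its signals were 8.47, 9.05 and 8.61 in sham, 7.22, 8.52 and 9.32 in BPH, and 8.41, 8.30 and 8.24 in BPH+ghrelin. The BPH arrays reached from below to above all arrays of the other groups. The BPH+ghrelin arrays lay close together and all below the sham arrays, by 0.40 between the means. This difference did not pass the test (limma, adjusted p = 0.648), nor did that of -0.36 between BPH and sham (adjusted p = 0.633). Between BPH+ghrelin and BPH, the difference of the means was -0.04, with a sign that depended on single arrays.

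Npy, the precursor of neuropeptide Y, a cotransmitter of noradrenaline in sympathetic nerves, was dimmer. The probe on 10 spots gave 4.98, 5.08 and 4.87 in sham, 4.80, 5.24 and 5.62 in BPH, and 4.98, 4.85 and 4.54 in BPH+ghrelin. The 3 groups overlapped. The difference was 0.24 between BPH and sham (limma, adjusted p = 0.480) and -0.19 between BPH+ghrelin and sham (adjusted p = 0.648), and it was -0.43 between BPH+ghrelin and BPH, given without a test. A second probe of Npy gave 4.08, 4.29 and 4.03 in sham, 4.37, 4.67 and 5.06 in BPH, and 4.35, 4.32 and 4.22 in BPH+ghrelin. On this probe, the BPH arrays lay above those of both other groups, with differences of 0.57 to sham and -0.40 from BPH to BPH+ghrelin. Pearson's r between the Npy probes was 0.81 over 9 arrays.

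Galr2, a galanin receptor that couples to phospholipase C, was the only receptor among the members. Its single probe gave 3.84, 4.44 and 3.56 in sham, 3.91, 4.01 and 4.99 in BPH, and 4.22, 3.93 and 3.82 in BPH+ghrelin. All groups overlapped, and the range of the 3 BPH+ghrelin arrays lay within that of the sham arrays. The difference was 0.36 ± 0.33 (standard error) between BPH and sham (limma, adjusted p = 0.497) and 0.04 ± 0.33 between BPH+ghrelin and sham (adjusted p = 0.954).

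Tac1 encodes substance P and neurokinin A. Its 2 probes were designed on different transcripts and did not run in parallel (Pearson's r -0.11 over 9 arrays). One of them gave 3.26, 2.26 and 3.24 in sham, 1.91, 3.31 and 4.06 in BPH, and 0.63, 0.61 and 0.62 in BPH+ghrelin. It was well above background on 2 of 3 sham arrays, 2 of 3 BPH arrays and 0 of 3 BPH+ghrelin arrays. No fold is given against BPH+ghrelin, since 1 array of each other group was not well above background either. Between BPH and sham the difference was 0.17 (limma, adjusted p = 0.846). The other Tac1 probe gave 1.24, 1.67 and 2.30 in sham, 1.65, 2.38 and 3.02 in BPH, and 3.15, 2.07 and 2.44 in BPH+ghrelin, and was well above background on 1 BPH and 1 BPH+ghrelin array. The groups overlapped on it, so that the lower signal of BPH+ghrelin was seen with 1 of 2 probes.

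For the remaining precursors no difference can be given. Calca, which encodes calcitonin and, by alternative splicing, calcitonin gene-related peptide, was well above background on BPH+ghrelin replicate 2 alone (log2 signal 3.07), with signals of 0.66 to 1.33 by the same probe on the other 8 arrays. The probes of Vip, Nts (neurotensin), Grp (gastrin-releasing peptide) and Adcyap1 (the peptide PACAP) were not marked as well above background on any of the 9 arrays. The highest log2 signal among these 4 genes was 2.76, of Adcyap1 on sham replicate 2. A probe without this mark does not show that the mRNA is absent.

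**Figure D2:**
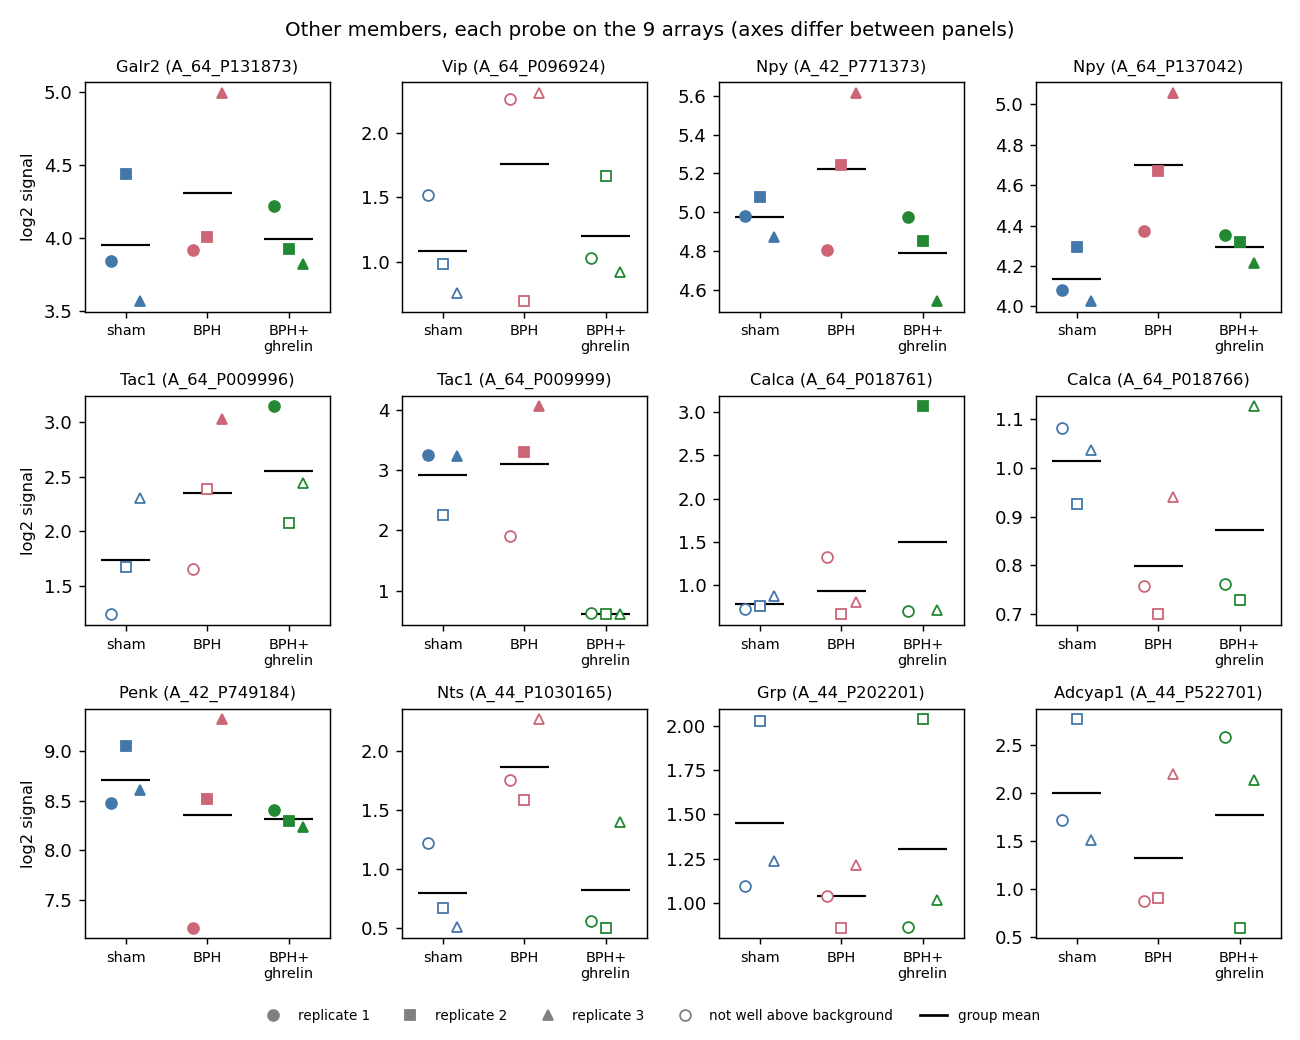
Log2 signal (quantile normalized) of the other 9 members on each array, by group, with 1 panel per probe and an own axis in each. Filled points were well above background and hollow points were not, and lines are group means. Galr2, Npy and Penk are filled on 9 of 9 arrays, and their groups overlap, except for the second Npy probe and for Penk between BPH+ghrelin and sham.

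For Gal no call is given, since it was selected on these arrays. The background was 293 genes called of 19750 tested (1.48%) in BPH+ghrelin against BPH, 847 of 19552 (4.33%) in BPH against sham and 1210 of 19197 (6.30%) in BPH+ghrelin against sham. Of the members other than Gal, limma, the only tool run, called 0 of 4 in BPH against sham and 0 of 3 in BPH+ghrelin against sham, with 0 at an unadjusted p under 0.05 in both. Of all genes tested, 21.1% had an unadjusted p under 0.05 in BPH+ghrelin against BPH, 26.5% in BPH against sham and 23.7% in BPH+ghrelin against sham. The median difference of the members other than Gal was -0.32 in BPH+ghrelin against BPH, 0.21 in BPH against sham and -0.19 in BPH+ghrelin against sham, while over all genes tested it was 0.02, 0.04 and 0.04. In the same order, the groups were free of overlap in 0 of 3, 0 of 4 and 1 of 3 of these members, and in 39.2%, 31.3% and 30.4% of all genes tested. Over the 9 arrays, Pearson's r with Gal was 0.10 for Galr2, -0.19 for Npy and 0.08 for Penk.

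None of the other genes of the galanin system was called by limma in any comparison, and 1 of them, Galp, had an unadjusted p under 0.05. Galr1 was not well above background on any array. Galr3 was measured on 7 of 9 arrays, with values of 3.92, 2.94 and 3.20 in sham, 3.81, 3.16 and 1.85 in BPH, and 3.85, 3.81 and 4.09 in BPH+ghrelin, which overlapped. Galp, which encodes a galanin-like peptide known from the hypothalamus, was lower in all BPH arrays (5.14, 4.96 and 4.77) than in all sham arrays (5.54, 7.17 and 6.34), by 1.39 on the log2 scale, and the difference did not pass the test (limma, adjusted p = 0.066). Without 1 array, the difference of Galp ranged from -1.80 to -0.99, and 1 of 6 such fits passed the test. That fit left out sham replicate 1, the sham array with the lowest Galp signal (limma, adjusted p = 0.014). In the other such fits the adjusted p reached 0.209. Under the 10 alternatives other than leaving out 1 array, the difference ranged from -1.49 to -0.58, and 0 of them gave a call. Spx, the precursor of spexin, a peptide that activates galanin receptors, gave 2.94 to 3.73 in BPH, 2.41 to 3.79 in BPH+ghrelin and 3.45 to 4.07 in sham.

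Receptors were then examined for all member peptides. Of 27 receptor and accessory genes with a probe, 7 were never well above background, namely Calcr, Galr1, Grpr, Nmbr, Npy2r, Oprk1 and Tacr3. In BPH against sham, 2 of 16 tested genes were called (4.33% of all genes), both lower in BPH. In this comparison 3 of 16 had an unadjusted p under 0.05 (26.5% of all genes). In BPH+ghrelin against sham, 4 of 15 were called (6.30% of all genes), and 4 of 15 had an unadjusted p under 0.05 (23.7%). Of the 4 called, 3 were lower in BPH+ghrelin and 1, Ntsr1, has no settled direction. In BPH+ghrelin against BPH, 0 of 15 were called by limma, with 2 at an unadjusted p under 0.05 (21.1% of all genes). The median difference over the receptors was -0.13, -0.08 and 0.03, in this order, against 0.04, 0.04 and 0.02 over all genes tested.

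Ramp1, which makes the calcitonin receptor-like receptor a receptor for calcitonin gene-related peptide, was the receptor gene with the largest difference in BPH against sham. Its signals were 11.19, 10.97 and 11.11 in sham, 9.63, 9.51 and 9.39 in BPH, and 9.56, 9.81 and 10.11 in BPH+ghrelin. Every sham array was above every array of the 2 castrated groups. Compared to sham, Ramp1 was 1.58 ± 0.16 lower in BPH (2.99-fold; limma, adjusted p = 0.003) and 1.26 ± 0.16 lower in BPH+ghrelin (2.40-fold; adjusted p = 0.005), each with the standard error. A second probe showed the same order, with 1.03 and 0.77. Both calls were kept without each of the 6 arrays in turn, and both were lost with slide as a block (adjusted p = 0.452 and 0.094), where the direction was kept. Its partner, the receptor gene Calcrl, was well above background on 1 array.

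Ntsr2, a neurotensin receptor, was lower than in sham (5.76, 5.37 and 5.48) in BPH (4.66, 4.37 and 4.40) and in BPH+ghrelin (4.51, 4.65 and 4.80). The groups did not overlap, and the differences were -1.06 ± 0.15 (limma, adjusted p = 0.013) and -0.88 ± 0.15 (adjusted p = 0.018). With slide as a block, the adjusted p was 0.664 and 0.195. The call in BPH was lost without BPH replicate 2, BPH replicate 3 or sham replicate 3 (adjusted p of 0.051 to 0.088), and the call in BPH+ghrelin without BPH+ghrelin replicate 1, BPH+ghrelin replicate 2 or sham replicate 3 (0.065 to 0.092).

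Npy1r, a receptor of neuropeptide Y in vascular and other smooth muscle, separated BPH+ghrelin from the other groups. It had 5.78, 5.95 and 5.69 in sham, 5.94, 5.42 and 5.03 in BPH, and 4.25, 4.53 and 4.84 in BPH+ghrelin. The difference was -1.26 ± 0.24 to sham (limma, adjusted p = 0.026) and -0.92 ± 0.24 to BPH (adjusted p = 0.100), of which the first passed the test. Over the 9 arrays its Pearson's r with Gal was -0.94, as a description. The call against sham was lost without BPH+ghrelin replicate 1, BPH+ghrelin replicate 2 or sham replicate 3 (adjusted p of 0.083 to 0.107) and with slide as a block (adjusted p = 0.211).

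Ntsr1, the main receptor of neurotensin, had 2 probes that went opposite ways. By the brighter one, BPH+ghrelin (3.47, 3.71 and 4.43) was lower than sham (4.93, 5.12 and 4.97), with a difference of -1.14 (limma, adjusted p = 0.047). By the other one, BPH+ghrelin (4.33, 5.09 and 5.75) was on average 0.58 above sham (3.99, 5.07 and 4.36). No direction can be given for this gene. The remaining receptors did not pass the test in any comparison. Vipr1, a receptor of vasoactive intestinal peptide, stayed between 13.04 and 13.34 on 9 of 9 arrays, and Oprm1, the mu opioid receptor, between 4.30 and 4.70.

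**Figure D3:**
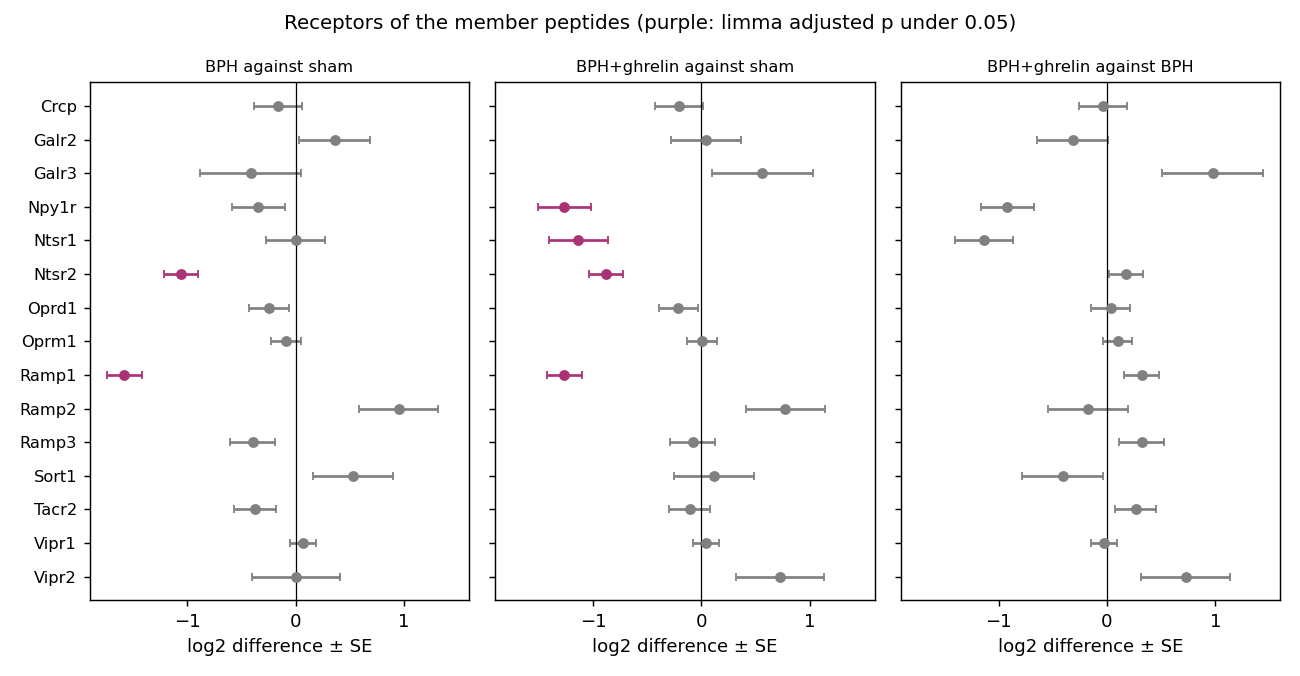
Differences of group means (log2, x axis) of 15 receptor and accessory genes tested in all 3 comparisons, with error bars of 1 standard error from limma. Purple marks an adjusted p under 0.05. Ramp1 and Ntsr2 lie below 0 in both comparisons with sham and near 0 between BPH+ghrelin and BPH, and the point of Ntsr1 is that of the brighter of 2 probes, which went opposite ways.

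Among 45 other precursors of neuropeptides and gut peptides, 41 had a probe and 27 were tested in each comparison. None was called by limma in BPH+ghrelin against BPH, where 4 of 27 had an unadjusted p under 0.05 (21.1% of all genes) and the median difference was 0.28. In BPH against sham 1 was called and 7 had an unadjusted p under 0.05 (26.5% of all genes), and in BPH+ghrelin against sham 1 was called and 11 had one (23.7% of all genes). In BPH+ghrelin against BPH, the largest difference without overlap was that of Cartpt, the precursor of the peptide CART of sympathetic and enteric neurons. Cartpt had 4.66, 5.21 and 5.78 in BPH+ghrelin, 3.60, 3.68 and 4.12 in BPH, and 4.11, 4.68 and 4.43 in sham. It was 1.42 higher in BPH+ghrelin than in BPH (adjusted p = 0.058). Nmb (neuromedin B, a relative of gastrin-releasing peptide) was called lower in BPH than in sham, with -1.06 (limma, adjusted p = 0.036). This call was lost without any single array but sham replicate 1 and with slide as a block (adjusted p = 0.779). Under the 10 alternatives other than leaving out 1 array, its difference ranged from -1.34 to -0.16, and 4 of them kept the call. Ucn2 (urocortin 2, of the corticotropin-releasing hormone family) had 5.67, 5.71 and 5.81 in BPH+ghrelin and 3.63, 3.31 and 2.97 in sham, of which 1 was well above background. It entered the test against sham through the 3 BPH+ghrelin arrays, so that its call there is not independent of the filter, and by a second probe Ucn2 differed by 0.38.

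Enzymes that make or break down neuropeptides were measured beside them. Of 10 tested genes of processing and dense core granules, 1 was called in BPH+ghrelin against sham (6.30% of all genes). In this comparison 2 of 10 had an unadjusted p under 0.05 (23.7% of all genes). The called gene was Cadps, which primes dense core granules for release. Sham arrays had 3.53, 2.46 and 2.62 and 1 of them was well above background, and BPH+ghrelin arrays had 4.40, 4.43 and 4.42. Cadps, too, entered this test through the 3 BPH+ghrelin arrays, so that its call is not independent of the filter. In the other 2 comparisons 0 of these genes were called, with 3 of 10 at an unadjusted p under 0.05 in BPH against sham (26.5% of all genes) and 2 of 10 in BPH+ghrelin against BPH (21.1%). Chga, Pcsk2, Ptprn, Scg3 and Vgf of this list were never well above background.

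Mme (neprilysin), a membrane peptidase that cleaves enkephalins, substance P and other peptides, was one of 8 peptide degrading enzymes tested. It had 14.70, 14.98 and 14.86 in sham, 15.90, 15.82 and 15.66 in BPH, and 15.09, 14.86 and 14.51 in BPH+ghrelin. All BPH arrays were above all others, by 0.95 compared to sham (limma, adjusted p = 0.026) and by 0.98 compared to BPH+ghrelin (adjusted p = 0.039). With scaling to the 75th percentile in place of quantile normalization, these differences were 0.40 (adjusted p = 0.308) and 0.47 (adjusted p = 0.262). The first call was kept without sham replicate 1 or sham replicate 2 and the second without BPH replicate 3, and they were lost without any other array and with slide as a block (adjusted p = 0.851 and 0.414). Ece1 (endothelin converting enzyme) was called higher in BPH+ghrelin than in sham, with 0.80 (limma, adjusted p = 0.042). That call was lost without any single array but sham replicate 1 and with slide as a block (adjusted p = 0.277). Under the 10 alternatives other than leaving out 1 array, its difference ranged from 0.51 to 0.81, and 5 of them kept the call.

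Genes that mark nerves were compared to Gal, since neurons are a known source of these peptides. Of 29 neuronal genes with a probe, 5 were never well above background: Dbh, Elavl4, Scn9a, Slc5a7 and Syt1. Dbh and Slc5a7 mark noradrenergic and cholinergic nerves, of which Slc6a2, Slc18a3 and Chat were well above background on 9 of 9 arrays. Chat, the enzyme of acetylcholine synthesis, had 3.92, 5.55 and 4.48 in sham, 3.40, 3.05 and 3.74 in BPH, and 4.73, 4.94 and 5.45 in BPH+ghrelin. Its difference of 1.65 between BPH+ghrelin and BPH did not pass the test (limma, adjusted p = 0.087). The log2 of the summed signal of the list was 10.70 to 10.99 in sham, 10.25, 11.28 and 11.82 in BPH, and 12.76, 12.38 and 11.84 in BPH+ghrelin. Like Gal, it was highest in BPH+ghrelin and spread in BPH. Over BPH+ghrelin replicates 1 to 3, however, the sum fell while Gal rose, and replicate 3 (11.84) was close to BPH replicate 3 (11.82). The sum was led by Uchl1, a ubiquitin hydrolase of neurons and other cells (9.92, 10.34 and 10.10 in sham, 9.15, 10.74 and 11.42 in BPH, and 12.52, 12.05 and 11.29 in BPH+ghrelin).

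Ina, a neurofilament subunit, ran closest to Gal among these markers, with Pearson's r of 0.98 over 9 arrays. It had 6.08, 5.41 and 5.78 in sham, 5.60, 7.20 and 8.04 in BPH, and 8.80, 8.74 and 8.79 in BPH+ghrelin, and was 3.02 ± 0.53 higher in BPH+ghrelin than in sham (limma, adjusted p = 0.018). The call was kept without sham replicate 1 or sham replicate 2 and lost without any of the other 4 arrays (adjusted p up to 0.080), while the difference stayed between 2.85 and 3.19. The call was also lost with slide as a block (adjusted p = 0.191). Ina was the only neuronal gene of 17 tested that was called in any comparison. In BPH+ghrelin against sham, 1 of 17 was thus called (6.30% of all genes), and 4 of 17 had an unadjusted p under 0.05 (23.7%). In BPH against sham and in BPH+ghrelin against BPH, 0 were called. In each of these, 5 of 17 had an unadjusted p under 0.05, a share near that of all genes (26.5% and 21.1%). Th, the first enzyme of noradrenaline synthesis, stayed between 7.04 and 7.39 on all arrays, and Prph (peripherin, an intermediate filament of peripheral neurons) was 5.42 ± 0.26 in sham, 5.29 ± 0.06 in BPH and 4.91 ± 0.23 in BPH+ghrelin. The list therefore did not move as one, and the part of nerves or other cells in the Gal signal was not tested.

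Markers of neuroendocrine cells had another course. Chga and Neurod1 were never well above background, and 4 of 7 genes with a probe were tested. Ncam1, an adhesion molecule of neurons and neuroendocrine cells, was 2.21 lower in BPH than in sham (limma, adjusted p = 0.003) and 2.63 lower in BPH+ghrelin (adjusted p = 0.001). With slide as a block, the first call was lost (adjusted p = 0.308) and the second kept (adjusted p = 0.030). The summed level of this list was 9.70 to 9.99 in sham, 7.98 to 8.20 in BPH and 8.05 to 8.93 in BPH+ghrelin.

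Genes of the prostate were measured in all groups. Pbsn (probasin), a secretory protein of the rat prostate, had a mean of 16.29 in sham, 13.64 in BPH and 14.40 in BPH+ghrelin, and all 13 epithelial genes with a probe were tested. Compared to sham, 9 of 13 were higher in BPH and 4 lower, while 6 were higher and 7 lower with scaling to the 75th percentile, so that the list has no settled direction. Of the 13, limma called 2 higher (Krt8 with 0.96 and Krt14 with 0.72, keratins of luminal and basal cells) and 2 lower, among them Pbsn with -2.65. In BPH+ghrelin against sham, 2 were called higher (Krt15 and Krt8) and 3 lower, among them Msmb and Pbsn, and in BPH+ghrelin against BPH 1 was called, higher in BPH+ghrelin. With slide as a block, the calls of Krt8, Krt14, Krt15, Msmb and Pbsn were lost. The calls of Pbsn against sham were kept without each array in turn. In BPH against sham, that of Krt14 was lost without any array but sham replicate 1, and that of Krt8 without BPH replicate 2 or sham replicate 3. In BPH+ghrelin against sham, those of Krt8, Krt15 and Msmb were lost without BPH+ghrelin replicate 1, BPH+ghrelin replicate 2 or sham replicate 3, those of Krt15 and Msmb without BPH+ghrelin replicate 3, and that of Msmb without sham replicate 1. Genes of the seminal vesicle and coagulating gland were at a summed level of 16.47 to 17.27 in sham, 9.62 to 14.80 in BPH and 9.20 to 11.96 in BPH+ghrelin. Their part in the differences between sham and the castrated groups, including those of Gal, Ramp1 and Ntsr2, was not tested. Between BPH+ghrelin and BPH, the arrays overlapped on this summed level, with 14.80, 13.93 and 9.62 on BPH replicates 1 to 3, on which Gal had 5.92, 7.80 and 8.80. Of 7 genes of this list tested in that comparison, 6 had lower means in BPH+ghrelin, with a median difference of -0.88, and limma called 0 (1 at an unadjusted p under 0.05). The part of this tissue in the Gal values was not tested.

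Markers of muscle, connective tissue and immune cells were compared as well, and in each of these lists 1 gene was called lower in BPH+ghrelin, the group in which Npy1r was low and Gal high. All 9 smooth muscle genes tested had lower means in BPH+ghrelin than in BPH (median difference -0.55) and than in sham (-0.37), and with scaling to the 75th percentile 8 and 9 of 9 did. In each of these comparisons limma called 1 of the 9, Myh11, the smooth muscle myosin heavy chain. Its signals were 11.45, 11.47 and 11.40 in sham, 11.18, 11.42 and 11.40 in BPH, and 10.37, 10.37 and 10.37 in BPH+ghrelin. Myh11 was thus lower on each BPH+ghrelin array than on all others, by -0.96 compared to BPH (adjusted p = 0.016) and -1.07 compared to sham (adjusted p = 0.002). The log2 of the summed signal of the smooth muscle list overlapped between groups, with 14.11 to 14.93 in sham, 14.14 to 15.08 in BPH and 14.07 to 14.21 in BPH+ghrelin.

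Of 7 fibroblast genes tested, 6 had lower means in BPH+ghrelin than in BPH (4 with scaling to the 75th percentile) and 2 had lower means than in sham, and Lum (lumican, a proteoglycan of the matrix) was called in both, with -1.65 (limma, adjusted p = 0.024) and -1.42 (adjusted p = 0.015). Of the immune genes tested, 5 of 9 and 5 of 8 had lower means, and Ptprc (the leukocyte antigen CD45) was called, with -0.82 (limma, adjusted p = 0.037) and -0.78 (adjusted p = 0.019). The summed level was 13.66 to 14.55 in sham, 14.25 to 14.85 in BPH and 14.18 to 14.65 in BPH+ghrelin for fibroblasts, and 10.35 to 10.38, 10.15 to 10.42 and 10.09 to 10.37 for immune cells. With slide as a block, the calls of Myh11, Lum and Ptprc were lost in both comparisons (adjusted p of 0.070 to 0.282). Against BPH, the 3 calls were also lost without BPH replicate 1, BPH replicate 2 or BPH+ghrelin replicate 2, those of Lum and Ptprc without BPH+ghrelin replicate 1, and those of Myh11 and Ptprc without BPH+ghrelin replicate 3 (adjusted p of 0.052 to 0.197). Against sham, Myh11 was kept without each of the 6 arrays, while Lum and Ptprc were lost without BPH+ghrelin replicate 2 or sham replicate 3, and Ptprc also without BPH+ghrelin replicate 1 (adjusted p of 0.063 to 0.0997). The part of these cells in the differences of Gal and Npy1r was not tested.

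Genes with a course like that of Gal over the 9 arrays were searched among 11089 named genes that were well above background on at least 6 arrays. The 5 with the highest Pearson's r were Dbf4 (0.99), Phf10, Kif20b, Mmp17 and Rchy1 (each 0.98). Dbf4 activates the kinase that starts DNA replication, Kif20b is a kinesin of cell division, Phf10 is a subunit of a chromatin remodelling complex, Mmp17 is a membrane-bound metalloproteinase and Rchy1 is a ubiquitin ligase. Kif20b had 4.90, 4.78 and 4.75 in sham, 4.41, 5.37 and 6.07 in BPH, and 7.15, 6.97 and 6.74 in BPH+ghrelin. The ordering of the groups, and of the BPH arrays, was thus as in Gal, with a smaller range. Over BPH+ghrelin replicates 1 to 3, however, Kif20b fell while Gal rose. These correlations are descriptions over 9 arrays that share 3 conditions, and the genes were picked for them.

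**Figure D4:**
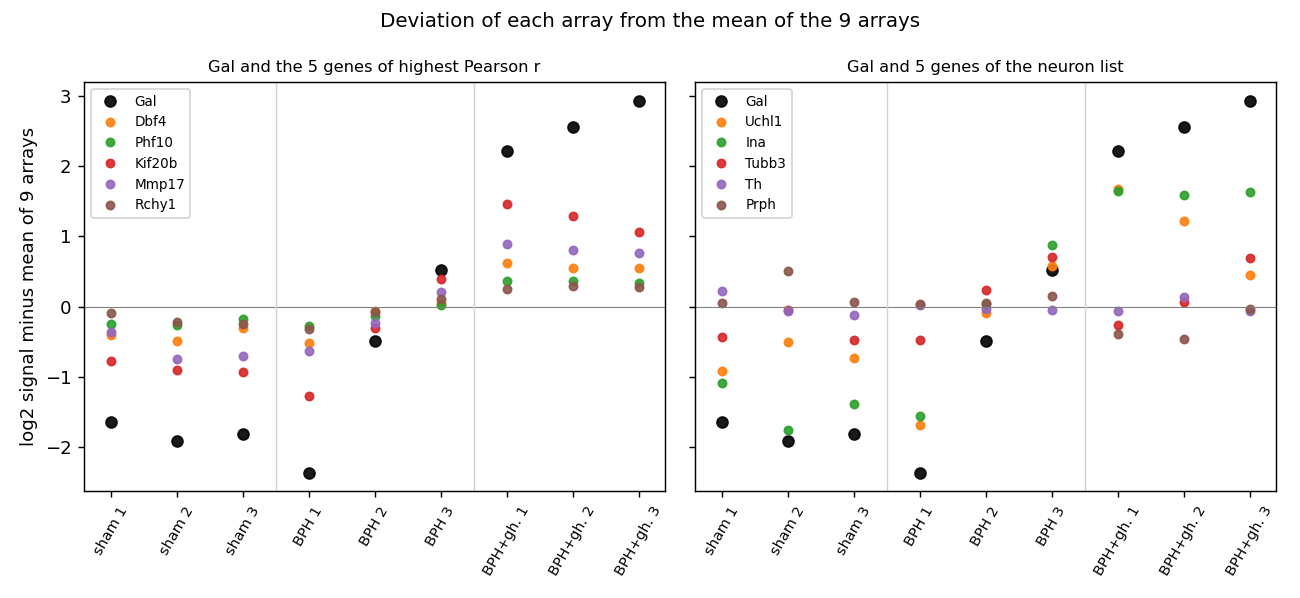
Deviation of the log2 signal of each array (x axis, 3 per group) from the mean of the 9 arrays (y axis), for Gal with the 5 genes of highest Pearson's r (left) and with 5 genes of the neuron list (right). Each point is 1 array. Gal has the largest range on both sides, Ina and Uchl1 are highest in BPH+ghrelin, and Th stays near 0 (7.04 to 7.39 before centring).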

How the data were processed

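Total RNA of rat prostates was amplified, labelled with Cy3 and hybridized to Agilent one-colour arrays, with 3 arrays per group and 44254 spots per array. The intensity deposited by the authors for each spot was made by the scanner software after background subtraction and was not normalized between arrays. In addition, a table of log2 values was deposited, which the authors had quantile normalized in GeneSpring; it served as an alternative only. Groups were taken from the sample labels.

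Control spots and outlier spots (313 to 741 per array) were left out, the spots of each probe were averaged, 30356 of 30367 probes were kept, and the log2 values were quantile normalized over 9 arrays. No spot was saturated (0 on each array). The number of arrays limits the precision. Probe accessions were matched to RefSeq genes of assembly GRCr8, which named 17998 probes (59.3%). Among the probes of a gene that met the filter, the one with the highest mean stood for it. Groups were compared with limma 3.58.1 in R 4.3.3 (lmFit and eBayes, 3 group means, 9 arrays), with Benjamini-Hochberg adjustment over all genes tested, two-sided, and genes with an adjusted p under 0.05 were called. All 3 comparisons share arrays. The fit was tested on simulated data.

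Members and gene lists were chosen with earlier results of these data known. Named were the members, the receptors, of other lists the genes called or, per comparison, up to 3 largest differences without overlap, and the 5 genes most like Gal; Th, Prph, Uchl1 and Spx were added for their role after their values had been seen. Some genes that met the rule are not reported here. Alternatives were 75th percentile scaling, normexp (offset 50), no filter or a filter on all 6 arrays, the 6 arrays compared only, the mean of probes, eBayes with trend and robust, the deposited log2 table, replicate number or slide as a block, and each array left out. The replicate numbers did not pair the samples (correlations of deviations from -0.14 to 0.26). Arrays are from separate animals per the study's methods.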

Additional observations from a re-analysis of the deposited data

How the results depend on the processing

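The direction of Gal in all 3 comparisons was kept under every alternative run. Its difference was 2.75 to 3.43 between BPH+ghrelin and BPH under the 10 alternatives other than leaving out 1 array, and 2.55 to 3.99 without 1 array; between BPH+ghrelin and sham it was 3.46 to 4.54 and 4.17 to 4.53, and between BPH and sham 0.72 to 1.53 and 0.36 to 1.80. The limits are the 3 arrays per group, the slides, none of which held both BPH and sham, and dim probes, for which sham replicate 2 had the highest background limit.

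The number of genes called in BPH+ghrelin against BPH was 293. It was 517 with 75th percentile scaling, 195 with no filter on dim probes, 2106 with the 6 arrays compared only, 17 with the replicate block and 2 with slide as a block, and 3 (without BPH replicate 2) to 398 (without BPH replicate 3) with 1 array left out. It was 7 and 9 without BPH+ghrelin replicate 2 and BPH replicate 1, and 35 and 78 without BPH+ghrelin replicates 3 and 1. In BPH against sham (847), it was 533 with no filter, 180 with 6 arrays, 243 with the replicate block and 2 with slide as a block, and 119 (without BPH replicate 2) to 3071 (without sham replicate 1) with 1 array left out; it was also 252 without BPH replicate 3 and 159 without sham replicate 3. In BPH+ghrelin against sham (1210), it was 803 with no filter, 461 with the replicate block and 84 with slide as a block, and 222 (without BPH+ghrelin replicate 2) to 1926 (without sham replicate 2) with 1 array left out; it was also 257 without sham replicate 3, and 407 and 552 without BPH+ghrelin replicates 1 and 3. The cause of these changes was not tested. The replicate numbers do not pair the samples.

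Signs changed in the following cases, which include differences of -1.14 (Ntsr1 in BPH+ghrelin against sham) and -0.84 (L1cam in BPH against sham). Ntsr1 was 0.18 in BPH+ghrelin against BPH with the mean of its probes and 0.56 against sham with 6 arrays, where the other probe was the brighter one. With slide as a block, Penk was 0.054 in BPH+ghrelin against BPH, Galr2 was -0.18, Npy -0.086 and L1cam 0.21 in BPH against sham, and Galr2 was -0.26 in BPH+ghrelin against sham. Galr2 was also -0.11 there with 75th percentile scaling and -0.0026 with normexp, and Tac1 was -0.16 in BPH against sham with 75th percentile scaling. Without 1 array, Penk ranged from -0.60 to 0.44 in BPH+ghrelin against BPH and from -0.84 to 0.21 in BPH against sham, Galr2 from -0.51 to 0.029 in BPH+ghrelin against BPH and from -0.15 to 0.29 in BPH+ghrelin against sham, and Tac1 from -0.31 to 0.77 in BPH against sham. On probes that did not stand for their gene, Tac1 in BPH+ghrelin against BPH (0.20) ranged from -0.15 to 0.54 without 1 array, and Npy in BPH+ghrelin against sham (0.16) was -0.0013 with 75th percentile scaling. Of 1817 values of single genes under an alternative, 1577 kept direction and side of the threshold, 178 lost and 31 gained a call, 19 changed sign and 12 values without a test moved by more than the spread between replicates.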
